A study of Mus musculus with 8 samples.

Results

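Counts were read for 10 mouse genes chosen by name: Spry4, Spry2, Spry1, Spred1, Dusp6, Dusp4, Etv4, Etv5, Etv1 and Fosl1, which encode feedback inhibitors of the ERK kinase pathway and transcription factors induced by it. All 10 were found among the 54838 genes of the count table, and all 10 were among the 19101 genes with enough counts to be tested. The choice was made by gene name with earlier results of these data known, so a count over the 10 describes them and does not sample the pathway. The cells were male induced pluripotent stem cells of 2 independent clones, which the sample titles call ESC. The shared culture medium held serum, LIF and the 2i pair, a MEK inhibitor at 1 µM and a GSK3 inhibitor at 3 µM, over irradiated feeders, so the kinase directly above ERK was inhibited in the growth medium that all 4 groups shared. Asynchronous cells were not arrested. Mitotic cells had been moved to gelatin and arrested with the microtubule drug nocodazole at 200 ng/ml for 6 h, and were then shaken off. Early G1 (EG1) and late G1 (LG1) cells were arrested and shaken off in the same way, washed, and replated on gelatin for 1 h and 3 h. Whether the MEK inhibitor was also in the medium used for release is not given in the sources used here. Each state had 2 libraries.

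Fibroblast growth factors such as FGF4 bind receptors at the cell surface. Through adaptor proteins and the GTPase RAS, these receptors switch on a chain of kinases that ends in MEK and ERK. Active ERK induces a set of transcripts, among them those of proteins that damp the pathway again: Sprouty and Spred proteins act near RAS, and dual-specificity phosphatases remove the activating phosphates from ERK. The ETS factors of the PEA3 group (Etv1, Etv4, Etv5) and the AP-1 subunit FRA-1 (Fosl1) are induced by the pathway and are also its effectors. In mouse pluripotent cells FGF4 and ERK promote the departure from the naive state, and a MEK inhibitor is used to hold cells in that state.

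Total counts ran from 20410621 to 25615244 per library. The replicates were unevenly spread, with a biological coefficient of variation of 0.292 in asynchronous, 0.183 in mitotic, 0.0506 in early G1 and 0.0418 in late G1 cells. All 10 markers of pluripotent cells were present in every state, with summed levels of 5716 and 7274 CPM (read counts relative to library size, scaled by TMM) in asynchronous cells and between 5876 and 7056 CPM in the other 6 libraries. The summed level of 25 fibroblast markers was 4740 and 4058 CPM in asynchronous cells, against 1598 to 1978 CPM in the other 6 libraries. Fn1 and Sparc made up most of the sums in those 6, with means of 804 and 887 CPM in mitotic cells. Sparc averaged 898 CPM in asynchronous cells, so the sums understate the fall of most other markers. In mitotic against asynchronous cells, 18 of the 23 tested fell and 1 rose, and Col1a1, a collagen gene of fibroblasts, stood at 7.59 and 10.2 CPM in mitotic against 509 and 555 CPM in asynchronous cells. For 12 macrophage markers the sums were 85.8 and 84.7 CPM in asynchronous, 115 and 99.4 CPM in mitotic, 49.2 and 43.2 CPM in early G1 and 48.2 and 51.3 CPM in late G1. Cd68 made up most of the G1 sums, at 43.7 and 39.4 CPM in early G1 and 43.7 and 44.9 CPM in late G1. It stood at 54.9 and 40.0 CPM in mitotic cells, so the sums understate the fall of most other macrophage markers. Fap was at 0 in both mitotic and both late G1 libraries, and Lyz2 at 0 in both late G1 libraries. A bulk level cannot tell fewer expressing cells from less RNA per cell.

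Spry4, a Sprouty inhibitor of receptor tyrosine kinase signalling (ENSMUSG00000024427, chromosome 18, 38586247 to 38601415, GRCm38), had the widest relative range of the 10. It stood at 0.876 and 1.83 CPM in asynchronous cells, 9.27 and 6.56 CPM in mitotic cells, 41.9 and 44.5 CPM in early G1 and 36.8 and 35.2 CPM in late G1. These values came from 22 and 36 reads in the asynchronous libraries and from 887 and 1153 reads in early G1. No 2 states overlapped, and the order from asynchronous to mitotic, late G1 and early G1 held for every library. Spry2, the second Sprouty gene (ENSMUSG00000022114, chromosome 14, 105891947 to 105896819), stood at 6.61 and 5.22 CPM in asynchronous, 11.5 and 12.7 CPM in mitotic, 31.3 and 31.8 CPM in early G1 and 30.1 CPM in each late G1 library. Its states followed the same order without overlap. Spry1 (ENSMUSG00000037211, chromosome 3, 37639947 to 37644598) stood at 14.8 and 6.69 CPM in asynchronous, 7.80 and 7.43 CPM in mitotic, 11.1 and 13.2 CPM in early G1 and 13.8 and 13.9 CPM in late G1. Its asynchronous libraries lay 2.21-fold apart and spanned the levels of all other libraries, so Spry1 showed no order of states like that of Spry4 and Spry2. Spry1 shares 710 exon bases with Gm42922 on the other strand, which had at most 6 reads in any library. Spred1, a Sprouty-related protein that brings neurofibromin to the membrane to inactivate RAS (ENSMUSG00000027351, chromosome 2, 117121374 to 117182279), stood at 18.6 and 11.5 CPM in asynchronous, 31.7 and 23.5 CPM in mitotic, 43.8 and 44.1 CPM in early G1 and 42.5 and 42.3 CPM in late G1. Its states did not overlap either.

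Dusp6, a cytoplasmic phosphatase with high selectivity for ERK (ENSMUSG00000019960, chromosome 10, 99263231 to 99267489), stood at 5.42 and 7.45 CPM in asynchronous, 10.9 and 8.33 CPM in mitotic, 28.8 and 33.2 CPM in early G1 and 30.4 and 31.9 CPM in late G1. The early and late G1 libraries overlapped, and both lay above every mitotic and asynchronous library. Dusp4, a nuclear phosphatase of MAP kinases (ENSMUSG00000031530, chromosome 8, 34807297 to 34819894), went another way: 9.12 and 14.2 CPM in asynchronous, 5.77 and 4.27 CPM in mitotic, 8.97 and 8.19 CPM in early G1 and 7.39 and 7.32 CPM in late G1. Its highest levels were in asynchronous cells and its lowest in mitotic cells.

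Etv4 (ENSMUSG00000017724, chromosome 11, 101769742 to 101785371) stood at 9.87 and 31.9 CPM in asynchronous, 60.5 and 61.2 CPM in mitotic, 124 and 112 CPM in early G1 and 117 and 115 CPM in late G1. The asynchronous libraries differed 3.23-fold, and both were below every other library. Etv1 (ENSMUSG00000004151, chromosome 12, 38779380 to 38870484) stood at 1.55 and 5.98 CPM in asynchronous, 14.1 and 15.2 CPM in mitotic, 19.3 and 18.7 CPM in early G1 and 15.1 and 17.0 CPM in late G1. The mitotic and late G1 libraries overlapped, and asynchronous replicate 1 was again the lowest. Etv5 (ENSMUSG00000013089, chromosome 16, 22381309 to 22439719) stood at 280.1 and 277 CPM in asynchronous, 531 and 447 CPM in mitotic, 390.3 and 406 CPM in early G1 and 377 and 367 CPM in late G1. Of the 10 genes it alone was highest in the mitotic libraries. Fosl1 (ENSMUSG00000024912, chromosome 19, 5447547 to 5455946) stood at 1.55 and 1.62 CPM in asynchronous, 2.99 and 3.54 CPM in mitotic, 5.05 and 3.94 CPM in early G1 and 7.80 and 7.27 CPM in late G1. Its states lay in that order without overlap. Of the 2033 exon bases of Fosl1, 1163 are shared with Ccdc85b on the other strand. The strand setting of the counting is not given, so the level of Fosl1 is uncertain. Ccdc85b was highest in asynchronous cells (17.5 and 36.9 CPM) and lowest in late G1 (6.02 and 5.58 CPM), the states in which Fosl1 was lowest and highest.

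**Figure D1:**
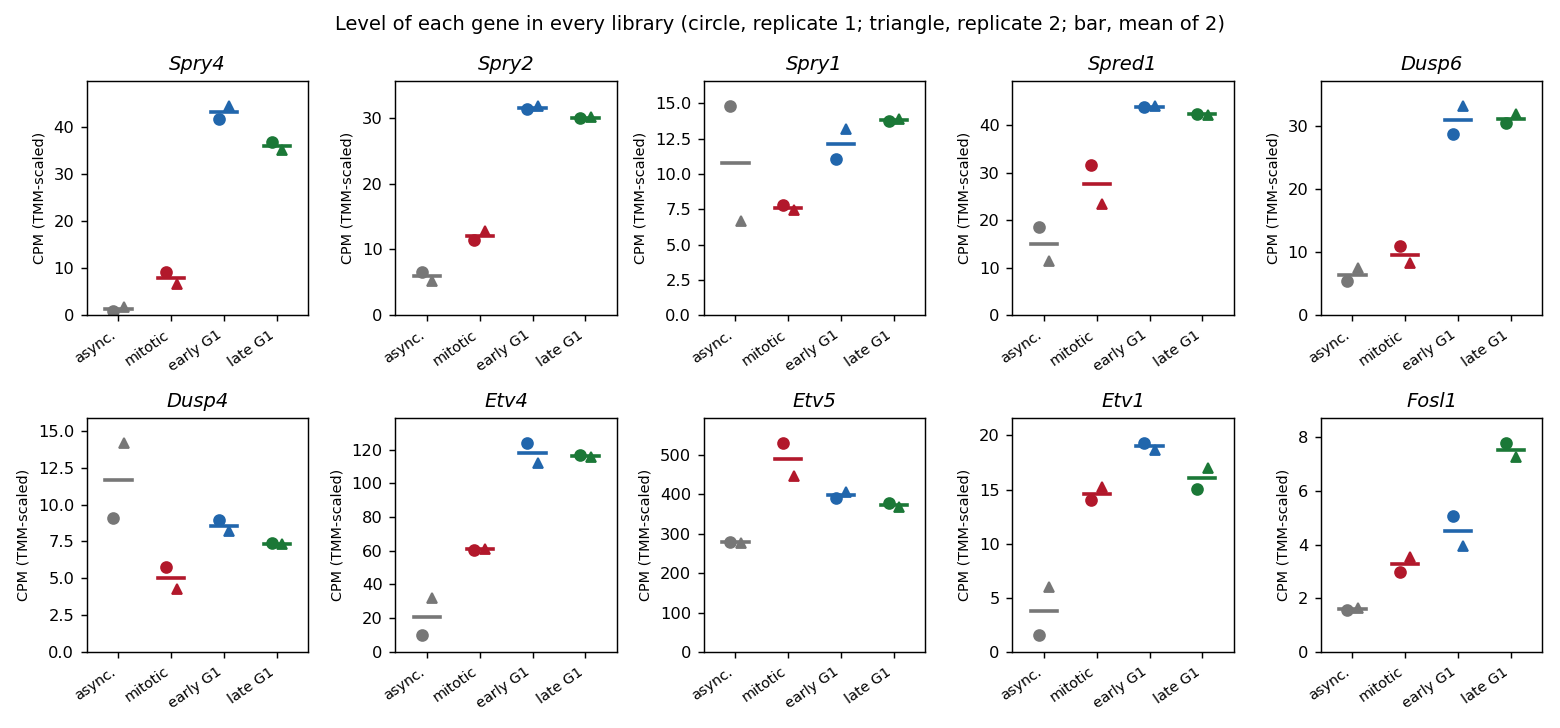
Level of each gene in every library, in TMM-scaled CPM on a linear axis from 0, for asynchronous, mitotic, early G1 and late G1 cells (circle, replicate 1, triangle, replicate 2, bar, mean of 2). Spry4, Spry2, Dusp6, Spred1 and Etv4 are highest in the 4 G1 libraries, Etv5 is highest in mitotic cells and Dusp4 in asynchronous cells.

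Scaled by the length of each gene's exons, Etv5 was the most abundant of the 10 in every state (67.9 ± 0.529 CPM per kb in asynchronous, 119 ± 14.4 in mitotic, 97.0 ± 2.70 in early G1 and 90.6 ± 1.75 in late G1 cells, SD, n = 2). Etv4 came next (6.73 ± 5.02, 19.6 ± 0.150, 38.0 ± 2.76 and 37.4 ± 0.380 CPM per kb, in the same order of states), and Etv1 was the lowest in every state. In late G1 the order ran Etv5, Etv4, Spry2, Dusp6, Spry4, Spred1, Spry1, Fosl1, Dusp4 and Etv1, with neighbours whose libraries did not overlap. In early G1 only Dusp6 and Spry4 overlapped as neighbours in the order. In mitotic cells Spred1, Dusp6 and Spry1 overlapped in sequence, as did Dusp4, Spry4 and Fosl1. In asynchronous cells Etv4, Dusp4, Spry1, Spry2, Spred1 and Dusp6 formed a run in which each overlapped the next, and Spry4 and Etv1 overlapped at the bottom. Spry4 was the ninth there at 0.284 ± 0.141 CPM per kb, and the fifth in early G1 at 9.09 ± 0.394.

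**Figure D2:**
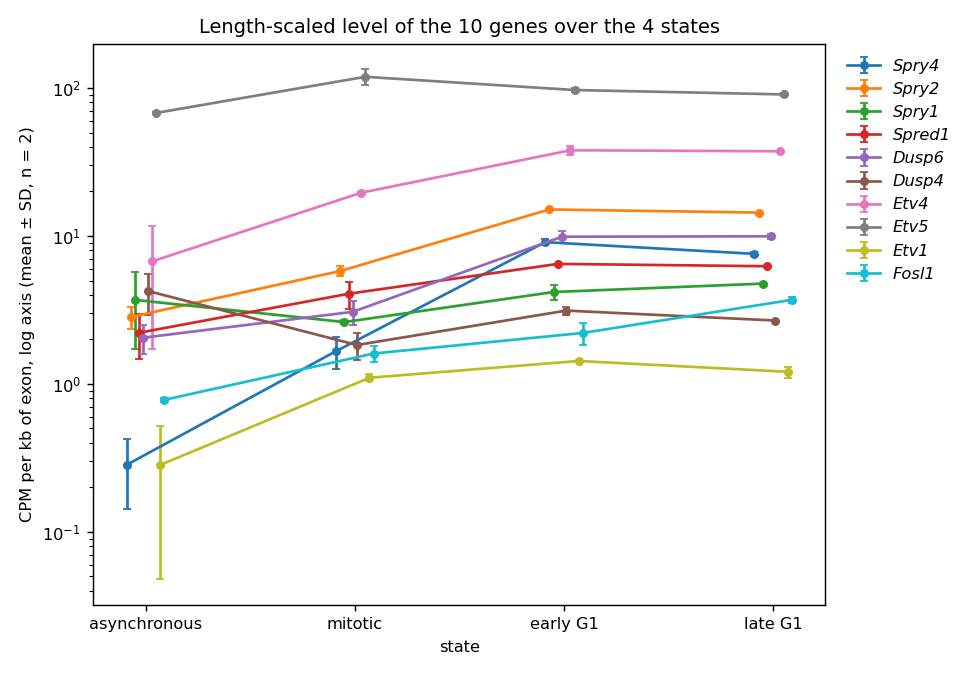
Level per kb of exon of the 10 genes over the 4 states on a log axis, as mean and SD of 2 libraries. Etv5 is at the top and Etv1 at the bottom in every state, and Spry4 has the steepest line, with 0.284 CPM per kb in asynchronous and 9.09 in early G1 cells.

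Tested over all 4 states together, 9 of the 10 genes differed, all but Spry1, where 48.5% of all tested genes did (quasi-likelihood F test of edgeR over 19101 genes, with p adjusted after Benjamini and Hochberg and called under 0.05). The smallest adjusted p were those of Spry4 (8.4e-05), Spry2 (0.000107) and Dusp6 (0.000251), and Spry1 had adjusted p = 0.18.

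At the arrest, the inhibitors Spry4, Spry2 and Spred1 and the factors Etv1, Etv4, Etv5 and Fosl1 were higher in mitotic than in asynchronous cells, and Dusp4 was lower. In this comparison 7 of the 10 genes rose, against 18.3% of all tested genes, and 1 fell, against 22.4% of all. The median log2 change was 0.95 over the 10 and -0.049 over all genes. Spry4 rose 5.98-fold (log2 2.58, SE 0.312, adjusted p = 0.000666) and Etv1 3.96-fold (log2 1.99, SE 0.467, adjusted p = 0.0114). Etv4 rose 2.93-fold (adjusted p = 0.0199), Fosl1 2.06-fold (adjusted p = 0.0105), Spry2 2.04-fold (adjusted p = 0.00222), Spred1 1.83-fold (adjusted p = 0.0194) and Etv5 1.76-fold (adjusted p = 0.00162). In each of the 7, both mitotic libraries were above both asynchronous ones. Of all tested genes, both lay above for 30.9% and below for 34.35%. Dusp4 fell by 1.21 on the log2 scale (SE 0.254, adjusted p = 0.00706), to 5.02 ± 1.06 CPM in mitotic against 11.7 ± 3.59 CPM in asynchronous cells. Dusp6 had a log2 change of 0.59 (adjusted p = 0.0546, and 0.0383 by DESeq2). Spry1 had -0.51 (adjusted p = 0.24). Fibroblast markers, which were higher in asynchronous cells, moved in the same direction as Dusp4 and opposite to the 7 genes that rose. Macrophage markers (4 of 11 higher, 0 lower) moved in the direction of those 7. The part of both marker groups was not tested. Synchronisation, drug and feeder RNA differ between these groups along with the cell cycle and cannot be told apart. In a fit of these 2 groups alone 4 genes rose (8.55% of all genes) and 1 fell (12.7%), while Etv4, Spred1 and Fosl1 were lost (adjusted p = 0.0581, 0.0735 and 0.07). Etv4 was lost without either mitotic library (adjusted p = 0.0765 and 0.073), Spred1 without mitotic replicate 1 (0.123), and Dusp4, Etv1 and Fosl1 without mitotic replicate 2 (0.0517, 0.0503 and 0.0506). Without asynchronous replicate 2, which left 1 library in that group, Spry1 had a log2 change of -0.96. Leaving out replicate 1 of both groups left 1 library in each. The spread then came from the early and late G1 libraries alone, which varied least, so that fit cannot gauge the spread of either compared group.

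In the first hour after release, Spry4, Spry2 and Dusp6 rose. These 3 of the 10 genes were called higher in early G1 than in mitotic cells, against 3.21% of all tested genes, and 0 were called lower, against 1.42% of all. At an unadjusted p under 0.05, 7 of the 10 differed, as did 4324 of all tested genes. DESeq2 also called 3 of the 10 higher and 0 lower, where it called 1412 of all genes and edgeR 885. The median log2 change was 0.72 over the 10 and -0.011 over all genes. Spry4 averaged 43.2 ± 1.88 CPM in early G1 and 7.92 ± 1.92 CPM in mitotic cells, 5.46-fold (log2 2.45, SE 0.265, adjusted p = 0.00428). Dusp6 averaged 31.0 ± 3.07 CPM in early G1 and 9.62 ± 1.83 CPM in mitotic cells, 3.22-fold (log2 1.69, SE 0.205, adjusted p = 0.00677). Spry2 averaged 31.5 ± 0.341 CPM in early G1 and 12.1 ± 0.900 CPM in mitotic cells, 2.61-fold (log2 1.38, SE 0.159, adjusted p = 0.00545). The other 7 were not called. Etv4 had a log2 change of 0.95 (adjusted p = 0.212), Dusp4 0.77 (0.125), Spry1 0.68 (0.256), Spred1 0.67 (0.136), Fosl1 0.46 (0.266) and Etv1 0.38 (0.642), all with both early G1 libraries above both mitotic ones. Etv5 had -0.30 (adjusted p = 0.19), with both early G1 libraries below both mitotic ones. Of all tested genes, 30.9% had both early G1 libraries above both mitotic ones and 30.9% had both below. Macrophage markers were lower in early G1 than in mitotic cells (8 of 11 tested, with Lyz2 at 0.756 and 0.116 CPM in early G1 against 28.7 and 30.8 CPM in mitotic cells), the direction of Etv5 and opposite to the other 9. Of the fibroblast markers, 5 of 23 rose and 0 fell, the direction of Spry4, Spry2 and Dusp6, with Col1a1 at 21.5 and 17.7 CPM in early G1 against 7.59 and 10.2 CPM in mitotic cells. The part of both marker groups in these levels was not tested. Washing after nocodazole and replating on gelatin differ between early G1 and mitotic cells along with the cell cycle, and cannot be told apart. Whether the release medium held the MEK inhibitor is not given, so its part cannot be told apart either.

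The number of calls in the first hour depended on the libraries in the fit. All groups shared 1 estimate of the spread, to which the asynchronous libraries contributed. In a fit of early G1 and mitotic cells alone, 7 of the 10 were called higher, against 9.47% of all genes: Etv4 (adjusted p = 0.00257), Spred1 (0.0259), Spry1 (0.0355) and Dusp4 (0.0439) joined the 3. The count was 7 as well without either asynchronous library, where 4431 and 4518 of all genes were called, and Etv5 was called lower there. Without replicate 1 of both the mitotic and the asynchronous group, 8 were called higher, against 20.8% of all genes, and Etv5 lower, against 19.3%. With 1 library of a compared group left out, the fit assumes that the remaining one varies like the other groups. The count was then 2 without mitotic replicate 2 (Dusp6 lost at adjusted p = 0.0592, with 144 of all genes called), 1 without mitotic replicate 1 or early G1 replicate 1 (Spry4 in both, with 54 of all genes called in each) and 0 without early G1 replicate 2 (42 of all genes), where Spry4 had a log2 change of 2.4 and adjusted p = 0.058.

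**Figure D3:**
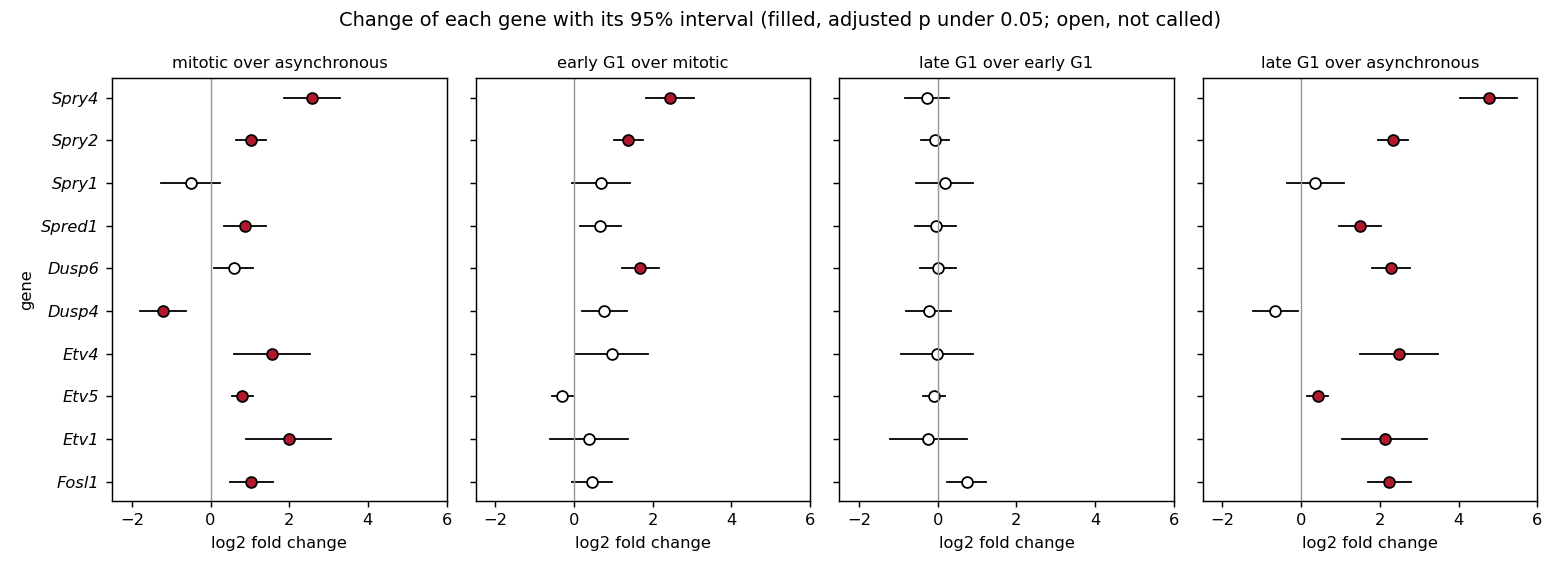
Log2 fold change of each gene in 4 comparisons, with its 95% interval from the edgeR fit, not adjusted for multiple testing (filled, adjusted p under 0.05, open, not called). In the first hour the intervals of Spry4, Spry2 and Dusp6 lie farthest above 0, and between early and late G1 only the interval of Fosl1 leaves 0 out.

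The sequence just before the transcription start is shown for the 4 inhibitor genes that have a single start in the table of promoters, 2 that rose in the first hour (Spry2, Dusp6) and 2 that were not called (Spry1, Spred1), to show which of them carry the ETS core near the start. Sequences are 250 bases before the RefSeq start on the strand of the gene, 5′ to 3′, from GRCm38.p6: chr14:105896820-105897069 (minus strand) for Spry2, chr10:99262981-99263230 (plus) for Dusp6, chr3:37639697-37639946 (plus) for Spry1 and chr2:117120821-117121070 (plus) for Spred1. Capitals mark the ETS core, GGAA on either strand (TTCC on the strand printed).
Spry2: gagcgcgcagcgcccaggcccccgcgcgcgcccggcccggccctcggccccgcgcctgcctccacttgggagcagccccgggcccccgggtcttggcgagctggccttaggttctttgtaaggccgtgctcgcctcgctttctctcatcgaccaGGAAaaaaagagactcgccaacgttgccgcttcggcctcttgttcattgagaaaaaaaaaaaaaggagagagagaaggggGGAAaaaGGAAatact
Dusp6: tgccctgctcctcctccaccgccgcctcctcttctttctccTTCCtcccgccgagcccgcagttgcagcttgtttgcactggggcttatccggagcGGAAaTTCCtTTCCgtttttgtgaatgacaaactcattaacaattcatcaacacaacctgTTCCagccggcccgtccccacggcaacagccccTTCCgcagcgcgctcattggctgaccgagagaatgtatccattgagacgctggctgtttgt
Spry1: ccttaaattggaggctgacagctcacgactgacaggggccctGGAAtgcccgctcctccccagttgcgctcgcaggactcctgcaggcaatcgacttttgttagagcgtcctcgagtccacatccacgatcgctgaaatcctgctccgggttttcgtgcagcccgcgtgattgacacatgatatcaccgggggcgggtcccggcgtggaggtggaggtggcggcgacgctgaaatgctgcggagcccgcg
Spred1: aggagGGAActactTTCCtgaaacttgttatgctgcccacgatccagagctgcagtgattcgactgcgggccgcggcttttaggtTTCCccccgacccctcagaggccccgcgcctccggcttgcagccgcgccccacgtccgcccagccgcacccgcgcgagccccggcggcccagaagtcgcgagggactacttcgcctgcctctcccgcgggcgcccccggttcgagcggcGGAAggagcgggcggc
Dusp6 held 6 matches, Spred1 4, Spry2 3 and Spry1 1, while the median over all 32851 promoters of that length was 3 and 93.4% held at least 1. The longer ETS word CCGGAAG was in 0 of the 4, and in 6.91% of all promoters. The AP-1 word TGANTCA was also in 0 of the 4 (6.75% of all promoters), as was the CRE word TGACGTCA, bound by CREB (1.55% of all promoters), each searched on both strands. These are matches of letters in 1 window. Of the other members, Etv5 and Etv1 had 2 starts each in the table, with 0 and 4 core matches for Etv5 and 2 and 1 for Etv1. Spry4, Dusp4, Etv4 and Fosl1 had no entry in the table of promoters, so their sequences were not searched.

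Between early and late G1 none of the 10 genes was called by edgeR, where 0.00% of all tested genes were. At an unadjusted p under 0.05 there were 724 genes in all and 1 of the 10, Fosl1. DESeq2 called 26 genes and 0 of the 10. Fosl1, at 7.80 and 7.27 CPM in late G1 and 5.05 and 3.94 CPM in early G1, had a log2 change of 0.75 (95% interval 0.25 to 1.24). Spry4 averaged 36.0 ± 1.11 CPM in late G1 and 43.2 ± 1.88 CPM in early G1, with a log2 change of -0.26 (95% interval -0.83 to 0.30). The intervals allowed changes of up to 1.37-fold for Dusp6, 1.22-fold for Spry2 and 1.39-fold for Spred1 upward, and no lower than 0.737-, 0.746- and 0.671-fold. In a fit of these 2 groups alone, the pair with the smallest spread between replicates, Fosl1 was called higher in late G1 (adjusted p = 0.00161, 3.50% of all genes) and Spry4 lower (adjusted p = 0.0234, 4.94% of all genes). Without replicate 1 of the mitotic and asynchronous groups the same genes were called, Fosl1 higher (3.01% of all genes) and Spry4 lower (4.69%). Besides Spry4, both late G1 libraries lay below both early G1 ones for Spry2, Dusp4, Etv5, Etv1 and Spred1, with log2 changes between -0.24 and -0.05. For Spry1, as for Fosl1, both lay above (log2 0.19). Of all tested genes, both lay below for 25.9% and above for 24.45%.

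Over the whole 3 h, Spry4, Dusp6, Spry2 and Fosl1 were higher in late G1 than in mitotic cells, 4 of the 10 against 5.43% of all tested genes, and 0 were lower, against 4.04%. The median log2 change was 0.90 over the 10 and -0.014 over all genes. Spry4 was 4.55-fold higher (adjusted p = 0.00426), Dusp6 3.24-fold (0.00427), Spry2 2.48-fold (0.00427) and Fosl1 2.31-fold (0.0165), each with both late G1 libraries above both mitotic ones. Of all tested genes, both lay above for 32.0% and below for 32.3%. Etv5 had a log2 change of -0.40 (adjusted p = 0.0761), at 372 ± 7.16 CPM in late G1 and 489 ± 59.1 CPM in mitotic cells, and Etv4 had 0.93 (adjusted p = 0.188), at 116 ± 1.18 and 60.8 ± 0.467 CPM in late G1 and mitotic cells. In the fit of these 2 groups alone 7 were called higher (12.8% of all genes), with Etv4, Spry1 and Spred1 in addition, and Etv5 was called lower (adjusted p = 0.0335, 9.45% of all genes). The same 7 were called higher, and Etv5 lower, without asynchronous replicate 1 or 2, where 5479 and 5546 of all genes were called, against 1810 with all libraries. Without replicate 1 of both the mitotic and the asynchronous group, 8 were called higher (21.7% of all genes) and Etv5 lower (21.5%). Macrophage markers were lower here too (7 of 11), and their part was not tested. Washing, replating and the unknown release medium cannot be told apart from the cell cycle here either. The count of higher genes among the 10 was 3 without mitotic replicate 2 (436 of all genes called), 2 without mitotic replicate 1 (Spry4 and Dusp6, 166 of all genes), 1 without late G1 replicate 2 (Spry4, 104 of all genes) and 0 without late G1 replicate 1 (73 of all genes).

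The course over the 3 h was read from the early G1 level relative to the middle of the mitotic and late G1 levels on the log2 scale. Early G1 minus that middle was 1.36 for Spry4 (SE 0.208, adjusted p = 0.0789), 0.84 for Dusp6 (SE 0.167, adjusted p = 0.148) and 0.73 for Spry2 (SE 0.131, adjusted p = 0.117), and -0.14 for Fosl1 (adjusted p = 0.892). None of the 10 was called by edgeR (4 at an unadjusted p under 0.05, 1601 of all genes), and 0.105% of all tested genes were, 20 genes. DESeq2 called 180 genes and 3 of the 10, Spry4, Spry2 and Dusp6 (adjusted p = 4.92e-07, 0.00331 and 0.00601). These and Etv4 were called without asynchronous replicate 1 or 2, where 487 and 530 of all genes were, and 7 were called without replicate 1 of the mitotic and asynchronous groups (13.7% of all genes called higher). In the same contrast 21 of the 23 tested fibroblast markers lay above 0, with a median of 0.80, and 2 of them were called, Col1a1 and Postn, the direction of Spry4, Dusp6 and Spry2. The macrophage markers had a median of -1.26, the opposite direction, and 0 of 11 were called. The part of both was not tested.

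Against cycling cells, 8 of the 10 genes were higher in late G1, where 22.7% of all tested genes were, and 0 were lower, where 26.0% were. The median log2 change was 2.18 over the 10 and -0.029 over all genes. Spry4 was 27.2-fold higher (log2 4.77, SE 0.315, adjusted p = 6.15e-05), at 36.0 ± 1.11 CPM in late G1 and 1.35 ± 0.671 CPM in asynchronous cells. Etv4 was 5.59-fold higher (adjusted p = 0.0024), Spry2 5.06-fold (7.73e-05), Dusp6 4.86-fold (0.000185), Fosl1 4.74-fold (0.000303), Etv1 4.34-fold (0.00695), Spred1 2.81-fold (0.00163) and Etv5 1.33-fold (0.0214). In all 8, both late G1 libraries were above both asynchronous ones. Of all tested genes, both lay above for 36.8% and below for 38.1%. Dusp4 had a log2 change of -0.66 (adjusted p = 0.0566), with both late G1 libraries below both asynchronous ones, and Spry1 had 0.36 (adjusted p = 0.376). In the fit of these 2 groups alone 7 were higher (15.7% of all genes) and Etv5 was not called (adjusted p = 0.0674), nor was it without early G1 replicate 2 or either late G1 library (adjusted p = 0.05, 0.12 and 0.0948). Without asynchronous replicate 1, which left 1 library in that group, the log2 changes were 1.05 for Spry1 and -0.94 for Dusp4. Without mitotic replicate 1 as well, the counts were 9 higher (34.2% of all genes) and 1 lower (35.1%). Fibroblast markers (19 of 23 lower in late G1, 1 higher) and macrophage markers (6 of 11 lower, 0 higher, median log2 change -1.36) moved opposite to the 8 genes, and their part in the levels was not tested. Nocodazole arrest, shake-off, replating on gelatin and feeder RNA differ between late G1 and asynchronous cells along with the cell cycle, and cannot be told apart. This comparison and that of mitotic with asynchronous cells share the asynchronous libraries.

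Other genes of the pathway were read from 5 lists. In late G1 against asynchronous cells the 12 genes for FGF ligands and receptors had a median log2 change of -0.87. Of these, 0 were higher (22.7% of all tested genes) and 6 were lower (26.0%). They included Fgf4, the main FGF of mouse pluripotent cells, at 184 and 190.2 CPM in late G1 against 334 and 414 CPM in asynchronous cells, with 182 and 240.2 CPM in mitotic cells. In the first hour 3.21% of all tested genes were called higher and 1.42% lower. Of the 12, 1 was called, Fgfr3, a receptor gene that rose (log2 1.06). Of 29 genes of the relay between receptor and ERK, 1 was called in the first hour, the adaptor gene Frs3, which was 2.92-fold higher in early G1 (adjusted p = 0.0064) and had 15.5 and 13.2 CPM there, against 5.44 and 4.36 CPM in mitotic cells. Frs3 stood at 42.6 and 45.4 CPM in asynchronous cells, so its early G1 level was still below that of cycling cells. In late G1 against asynchronous cells 6 of the 29 were higher and 6 lower, near the shares of all tested genes (22.7% and 26.0%). The median of the 29 was 0.16. Mapk3, which encodes ERK1, and Mapk1ip1 were among the lower (log2 -0.89 and -1.25). Ksr1, a scaffold of the kinases, was lower in late G1 than in mitotic cells (log2 -0.66).

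Of 17 other feedback inhibitors tested (18 listed), 1 rose and 1 fell in the first hour. Of all tested genes, 3.21% rose and 1.42% fell there. Dusp10, a phosphatase of p38 and JNK, had a log2 change of 1.10, and Dusp16, a phosphatase of JNK, fell by 0.82 on the log2 scale (adjusted p = 0.0174). Dusp14, another phosphatase of MAP kinases, was called at the arrest but not in the first hour. It stood at 48.1 and 42.4 CPM in mitotic cells against 8.92 and 8.82 CPM in asynchronous cells (5.10-fold, adjusted p = 4.97e-05), and its log2 change in the first hour was -0.24 without a call. In late G1 against asynchronous cells 8 of the 17 were higher (22.7% of all tested genes) and 1 lower (26.0%). The median was 0.29. Of 17 other ETS and AP-1 factors tested (19 listed), the AP-1 genes Junb and Fos rose in the first hour, 2.32- and 2.09-fold (adjusted p = 0.0117 and 0.0201), and 0 fell. In late G1 against asynchronous cells 10 of the 17 were higher (22.7% of all tested genes) and 2 lower (26.0%). The median was 0.62. Fosl2, a relative of Fosl1, was lower (log2 -1.65).

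Of 16 other ERK-responsive genes, 2 rose and 1 fell in the first hour, against 3.21% and 1.42% of all tested genes. Egr1, an immediate early zinc finger factor, stood at 12.9 and 11.5 CPM in early G1 against 1.10 and 0.820 CPM in mitotic cells (12.7-fold, adjusted p = 0.000978), and at 8.48 and 8.30 CPM in late G1. It was the 1 gene of these 5 pathway lists whose early G1 level was called above the middle of mitotic and late G1 (log2 2.10, adjusted p = 0.0112). Egr3 was the other that rose, at 0.520 and 0.618 CPM in early G1 against a listed 0 and 0.0432 CPM in mitotic cells, the last from 1 read. Klf2, a naive pluripotency factor whose protein ERK is known to destabilise, fell by 0.90 on the log2 scale in the first hour (adjusted p = 0.00995), to 131 and 120.1 CPM in early G1 against 240.3 and 227 CPM in mitotic cells. In mitotic against asynchronous cells 10 of the 16 rose (18.3% of all tested genes) and 3 fell (22.4%). They included Phlda1, a known ERK target (5.71-fold, adjusted p = 6.27e-05), and Epha2, an ephrin receptor (3.18-fold, adjusted p = 0.000185), whose log2 changes in the first hour were 0.19 and -0.14. Srf, a transcription factor of immediate early genes, rose 2.86-fold at the arrest (adjusted p = 0.000212). Ier3, an immediate early gene, fell by 3.03 on the log2 scale at the arrest (adjusted p = 2.45e-05). In late G1 against asynchronous cells 12 of the 16 were higher (22.7% of all tested genes) and 3 lower (26.0%). The median log2 change was 1.18. Epha4 was 6.84-fold higher there (adjusted p = 0.000102), and Plaur, the urokinase receptor, was lower in late G1 than in mitotic cells (log2 -0.86). Whether these genes differed from Spry4 in the first hour was not tested. Fibroblast markers were lower than in asynchronous cells at the arrest (18 of 23) and in late G1 (19 of 23). The falls of listed pathway genes against asynchronous cells went the same way, and the part of feeder RNA in them was not tested.

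**Figure D4:**
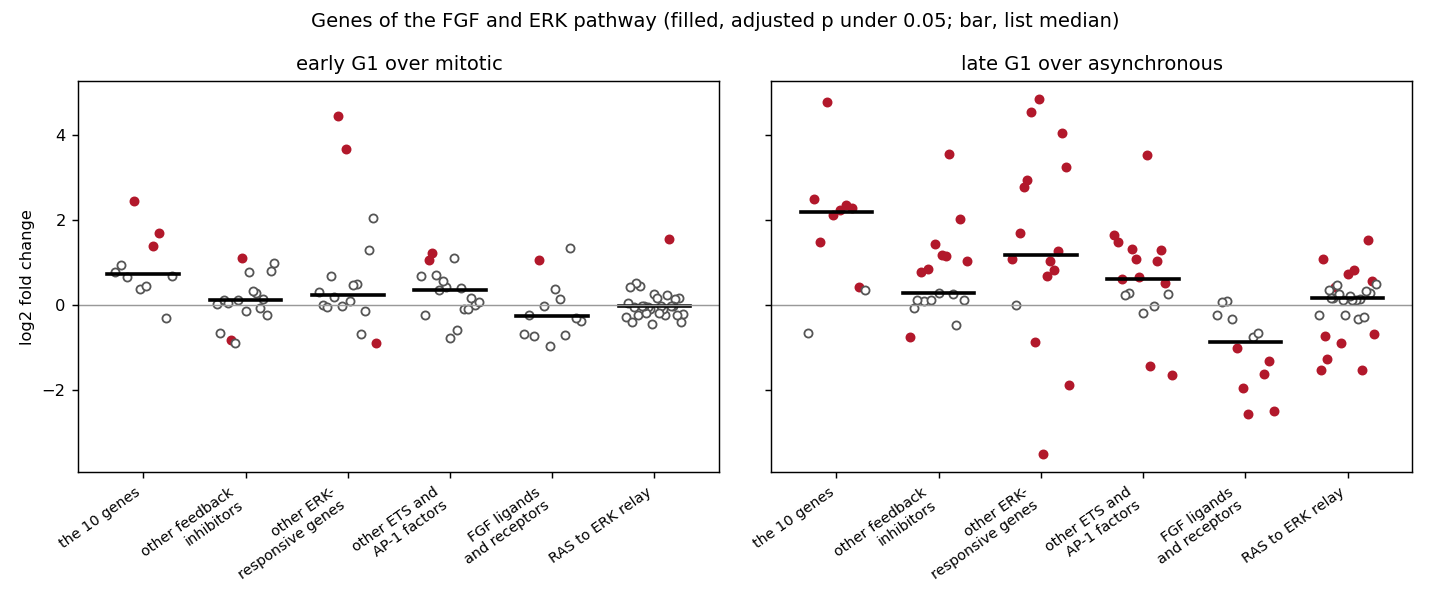
Log2 fold changes of the 10 genes and of 5 lists of other pathway genes in early G1 over mitotic cells (left) and late G1 over asynchronous cells (right), with called genes filled and list medians as bars. The medians in the left panel are 0.72 for the 10 genes and -0.26 to 0.35 for the lists, and in the right panel 2.18 for the 10 genes and -0.87 to 1.18 for the lists.

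Across the 8 libraries the log2 levels of Spry4, Spry2 and Dusp6 ran closely together (Pearson r = 0.97 for Spry4 with Spry2, 0.964 for Spry4 with Dusp6 and 0.957 for Spry2 with Dusp6). Etv4 and Etv1 ran together too (r = 0.967), and Etv4 with Spry4 (r = 0.959). Dusp4 had r between -0.791, with Etv5, and 0.085, with Spry1, and Spry1 had r of at most 0.563, with Spred1. These values describe 8 libraries of 4 states that all pairs share. Among 10748 other genes at or above an average of 2 on the log2 CPM scale, the patterns most like that of Spry4 were those of Atp5l, an ATP synthase subunit gene with processed copies that may share its reads (r = 0.9988), Cdc25a, a phosphatase that activates cyclin-dependent kinases (r = 0.9984), Tmem198 (0.9938) and Trmt44 (0.9934). Those most like Dusp6 were Rnf225 (r = 0.9955), Fst, which encodes the activin antagonist follistatin (0.9862), Asb1 (0.9845) and Aste1 (0.9791). Those most like Etv4 were Limch1 (r = 0.993), Tigar (0.9879), Ints11, the endonuclease of the Integrator complex (0.9861), and Zfp213 (0.985).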

How the data were processed

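Messenger RNA was sequenced with a stranded kit and single 50-base reads, per the labels' protocols. The submitters' processing notes list TopHat2, SAMtools, HTSeq and mm10, with no version or setting. Neither the annotation release nor how strand was counted is given in the sources used here. The deposited table holds the authors' raw read count for each of 54838 Ensembl genes. IDs were matched to symbols, positions and exon lengths with GENCODE M21 (GRCm38), and coordinates are 1-based.

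Samples were grouped by title, with EG1 and LG1 taken as the 1 h and 3 h collections. In R 4.3.3, edgeR 4.0.16 was run on all 8 libraries: filterByExpr with a minimum count of 10, TMM scaling, robust quasi-likelihood F tests with no block for the replicate number (4 residual degrees of freedom), two-sided, and Benjamini-Hochberg adjustment over 19101 genes in each comparison. A gene was called at adjusted p under 0.05. DESeq2 1.42.0 was an alternative. CPM are TMM-scaled. A floor of 3 counts lay between 0.116 and 0.152 CPM and covers counting error only. The labels name 2 clones as replicates but not which library is which, so p-values measure the spread between 2 samples. Every replicate pair differed beyond sampling noise (mean chi-square per gene at least 3.00).

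The 10 genes and all lists were chosen with earlier results of these data known. Beyond the 10, the genes named were the 4 called pathway genes with the smallest p in each direction of a comparison (on average 2 or more in log2 CPM) and the 4 most like Spry4, Dusp6 and Etv4 by Pearson correlation of log2 CPM (prior count 2), leaving out clone names and pseudogenes. Fgf4, Fgfr3, Mapk3, Egr3 and Dusp10 in the first hour, Gm42922, Ccdc85b, Fap, Fn1, Sparc, Cd68 and Postn were named after their values were seen.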

Additional observations from a re-analysis of the deposited data

How the results depend on the processing

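Of the log2 changes of single genes, 0 turned direction with a call under any alternative. Over 16 alternatives, 826 kept their side of the threshold, 93 passed it newly and 31 lost it. With the replicate block the counts were those of the report (7 higher and 1 lower in mitotic against asynchronous cells, 3 in the first hour, 4 in late G1 against mitotic cells and 8 in late G1 against asynchronous cells), so it changed no call. The labels do not say that a number marks a clone. Over 12254 genes the replicate deviations of asynchronous and mitotic cells correlated at 0.621, and those of the other pairs of groups at -0.345 to 0.055. The main fit held no term for this. With RLE scaling 8 rose at the arrest (7803 of all genes called, against 7767). With scaling that left out 1120 genes over 4-fold lower in mitotic cells, 1 gene was lower in late G1 against asynchronous cells. There 9329 of all genes were called, against 9305 in the main fit. With no filter on low counts, 6 were higher in the first hour (2362 of all genes called, against 885). In late G1 against mitotic cells 7 were higher (3289, against 1810). In late G1 against asynchronous cells 1 was lower (10339, against 9305). For early G1 against the middle of its neighbours 4 were called (423, against 20). With DESeq2, 3 were called in that last contrast. In fits of the 2 compared groups alone, 4 were higher at the arrest, 7 in the first hour and 7 in late G1 against mitotic cells, with 1 lower, and 1 was higher and 1 lower in late G1 against early G1. Setting replicate 1 of both mitotic and asynchronous cells apart by a model term gave 8 higher and 1 lower at the arrest. There 11017 of all genes were called, against 7767 in the main fit. That term gave 5 higher in the first hour (5882 of all genes called) and 6 higher and 1 lower in late G1 against mitotic cells (6593). In late G1 against asynchronous cells it gave 9 higher and 1 lower (11932, against 9305), and 4 against the middle (993). Leaving out both these libraries, an alternative chosen after seeing the data, gave 8 higher and 1 lower in the first hour, 1 higher and 1 lower between the G1 states, 8 higher and 1 lower in late G1 against mitotic cells, 1 lower against asynchronous cells and 7 against the middle. That fit kept 1 mitotic and 1 asynchronous library, so its spread came from the early and late G1 libraries alone. Their coefficients of variation were 0.0506 and 0.0418, against 0.183 in mitotic and 0.292 in asynchronous cells. The causes were not tested.

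Leaving out 1 library at a time, the counts of higher and lower genes ran from 5 to 8 and from 0 to 2 at the arrest, from 0 to 7 and from 0 to 1 in the first hour, from 0 to 7 and from 0 to 1 in late G1 against mitotic cells and from 7 to 9 and from 0 to 1 in late G1 against asynchronous cells. Against the middle they ran from 0 to 4, and over the 4 states from 8 to 10. Between the G1 states they were 0 in each of these fits. Each of the 10 genes had at least 22 reads in every library, and 2 libraries a group limit the precision of the spread.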
